A study of Mus musculus with 311 samples.

Results

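The comparison described here set livers with high Fasn relative to Sqle against livers with low Fasn relative to Sqle. Fasn codes for fatty acid synthase and Sqle for squalene epoxidase, an enzyme of cholesterol synthesis. Fasn and Sqle log10 ratios were standardized over all 311 arrays, Fasn was fitted on Sqle by a line, and animals were ranked by the residual of that fit, so the members were chosen by measured Fasn and Sqle values. The arrays were divided at -0.5 on a probe of the Y-linked gene Eif2s3y into an Eif2s3y-high group of 155 animals and an Eif2s3y-low group of 156. Within each group, the 39 animals with the highest residuals were set against the 39 with the lowest. The comparison therefore used 156 of 311 animals, and the 77 middle animals of the Eif2s3y-high group and 78 of the Eif2s3y-low group were kept apart. The high-residual set of the Eif2s3y-high group, the low-residual set of that group, the high-residual set of the Eif2s3y-low group and the low-residual set of that group were compared.

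All of these animals were F2 mice of an intercross of C57BL/6J and C3H/HeJ, both on ApoE null backgrounds, so that high and low sets alike lacked apolipoprotein E, which clears remnant lipoproteins. They were females and males that ate a high fat Western diet between 8 and 24 weeks of age. Liver RNA of each animal was hybridised against 1 pool of RNA from the study's samples, and every value is a log10 ratio of the animal over that pool. No control diet and no ApoE wild type was among the samples, and the labels give neither the sex nor the feeding state of an animal.

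Fatty acid synthesis turns citrate from glucose breakdown into acetyl-CoA and malonyl-CoA and then into long-chain fatty acids, which are elongated, desaturated and stored as triglyceride. Sterol synthesis starts from the same acetyl-CoA and passes through mevalonate and squalene to cholesterol. In liver both pathways are driven by the sterol regulatory element binding proteins, SREBP-1c mainly for fatty acid enzymes under insulin and SREBP-2 mainly for sterol enzymes when cell cholesterol is low, while the carbohydrate-sensing factor ChREBP acts on lipogenic and glycolytic genes.

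The upstream sequences of Fasn and of the sterol enzyme gene Mvd are shown because Fasn made the ranking and Mvd was called higher in both groups. Both are the 250 bases before the gene start from RefSeq on GRCm38.p6, Fasn at chr11:120824548-120824797 and Mvd at chr8:122443423-122443672, each on the minus strand and written 5′ to 3′ toward the gene. Capitals mark CCAAT and GGGCGG on either strand.
Fasn: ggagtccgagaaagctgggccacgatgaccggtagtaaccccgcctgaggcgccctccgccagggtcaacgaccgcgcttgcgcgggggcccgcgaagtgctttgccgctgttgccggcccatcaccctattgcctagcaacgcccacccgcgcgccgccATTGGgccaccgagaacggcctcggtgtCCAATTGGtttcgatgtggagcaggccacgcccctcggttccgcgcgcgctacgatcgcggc
Mvd: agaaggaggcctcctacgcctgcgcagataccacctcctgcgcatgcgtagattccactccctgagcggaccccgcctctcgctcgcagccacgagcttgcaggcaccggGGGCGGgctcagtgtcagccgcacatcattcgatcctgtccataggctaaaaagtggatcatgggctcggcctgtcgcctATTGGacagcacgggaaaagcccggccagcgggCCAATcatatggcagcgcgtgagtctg
The letters CCAAT were found 3 times before Fasn, at 90 to 86, 62 to 58 and 59 to 55 bases before the start, of which the last pair overlap on opposite strands. Mvd held CCAAT at 60 to 56 and 27 to 23 bases before the start and GGGCGG at 140 to 135. Of 32851 windows of this length, 33.8% held CCAAT, 32.7% GGGCGG, 6.02% CACGTG and 1.05% TCACNCCAC, on either strand. Of 10 sterol synthesis genes with an entry, 10 held CCAAT and 10 held GGGCGG. Of 14 fatty acid synthesis genes with an entry, 7 held CCAAT and 8 held GGGCGG, against 39.6% and 54.1% of 8545 matched genes among those tested. TCACNCCAC was found for 0 of these 24 genes. A gene with more than 1 window was counted when any of them held the letters. The shares of the 32851 windows count each window once. A match of letters is a description of the window and not a binding site.

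Fasn and Sqle themselves follow from the ranking and were not tested. Over all arrays the line had a slope of 0.584 and took up 34.1% of the variance of Fasn. In the Eif2s3y-high group, Fasn had a lowest, median and highest log10 ratio of -0.0953, 0.161 and 0.507 in the high-residual set, and -0.663, -0.295 and 0.133 in the low-residual set, a 3.2-fold difference of means. The Eif2s3y-low group had -0.321, 0.248 and 0.514 in the high-residual set, and -0.623, -0.290 and -0.0685 in the low-residual set, a 3.5-fold difference. Sqle was not equal in the sets that a residual on Sqle defines. Its mean in the Eif2s3y-high group was -0.241 ± 0.338 in the high-residual set and -0.160 ± 0.425 in the low-residual set (SD, n = 39 each), and in the Eif2s3y-low group -0.0804 ± 0.352 and -0.215 ± 0.336 (SD, n = 39 each). Sqle was thus 1.21-fold lower in the high-residual set of the Eif2s3y-high group and 1.36-fold higher in that of the Eif2s3y-low group. The sets are close to bands of equal Sqle with high or low Fasn, and not sets in which the 2 genes run in opposite directions.

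**Figure D1:**
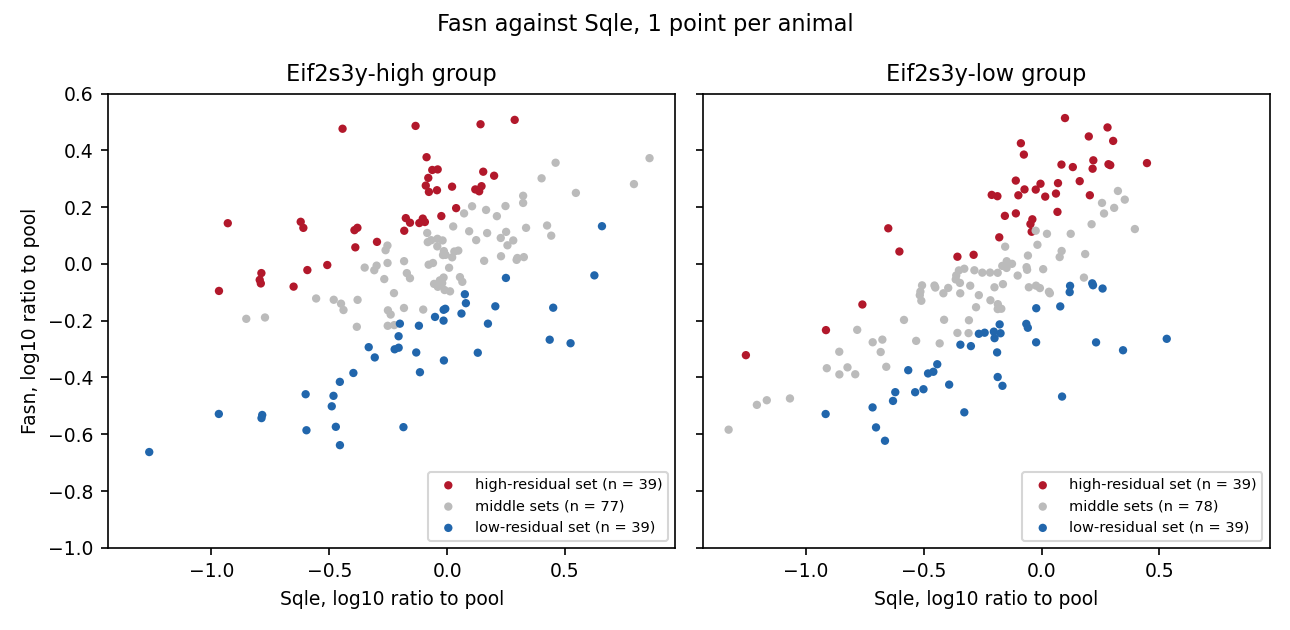
Fasn (vertical axis) against Sqle (horizontal axis), both as log10 ratios to the pool, with 1 point per animal and 1 panel per group. Red points are the high-residual set, grey points the middle sets and blue points the low-residual set, and red and blue points share most of the Sqle range.

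The edges of the sets were not gaps. In the Eif2s3y-high group the high-residual set began at a residual of 0.641 and the next animal had 0.620, while the low-residual set began at -0.584 and its neighbour had -0.573. In the Eif2s3y-low group the edges were 0.449 against 0.440, and -0.570 against -0.550. Eif2s3y, which was used only to divide the arrays, ran from -0.219 to 0.527 above the division and from -1.76 to -0.875 below it.

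The arrays of the sets were alike in spread, with median SDs over probes of 0.102 in the high-residual set and 0.102 in the low-residual set of the Eif2s3y-high group, and of 0.0962 and 0.0978 in the Eif2s3y-low group. They were not alike in F2 number, the only label that differs between animals: 22 animals of the high-residual set and 14 of the low-residual set of the Eif2s3y-high group had numbers above the median of 186, against 22 and 23 in the Eif2s3y-low group. Strong signal of pancreas or muscle genes (10 times the pool or more) was seen on 2 and 3 arrays of the high-residual sets of the Eif2s3y-high and Eif2s3y-low groups, and on 0 and 0 arrays of the low-residual sets.

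A moderated linear model (limma) was fitted to all 11385 genes other than Fasn and Sqle, and genes with a Benjamini-Hochberg adjusted p under 0.05 are spoken of as called. In the Eif2s3y-high group 1133 genes (9.95%) were higher and 1161 (10.2%) lower in the high-residual set, 2294 (20.1%) in all. In the Eif2s3y-low group 420 (3.69%) were higher and 413 (3.63%) lower, 833 (7.32%) in all. Most differences were small: 43 genes rose and 20 fell by 1.5-fold or more in the Eif2s3y-high group, and 24 rose and 21 fell by as much in the Eif2s3y-low group. Both groups, which hold different animals, called 214 genes (1.88%) higher and 202 (1.77%) lower, which is 18.1% of the genes called in the Eif2s3y-high group and 49.9% of those called in the Eif2s3y-low group. Another 4 genes were called in opposite directions. The groups differed, by the test of the difference itself, for 93 genes (0.817%). In the animals between the outer sets, the set above the middle was set against the set below it. There 293 of the 416 genes called in both groups kept their sign in both groups. The share of all genes that did so is not given here, so the 293 cannot be weighed against it. On these sets the same model called 0 genes in the Eif2s3y-high group and 1 in the Eif2s3y-low group. At an unadjusted p under 0.05 it called 1744 and 833.

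Among the enzymes that work beside Fasn, 8 were called higher in both groups and none lower in either. Of 19 fatty acid synthesis genes tested, 9 rose and 0 fell in the Eif2s3y-high group, and 14 rose and 0 fell in the Eif2s3y-low group. Called higher among all genes were 9.95% and 3.69% in the same order. The list's median was 1.22-fold and 1.37-fold, beside 0.997-fold and 0.998-fold over all genes tested. The 8 called in both groups were Acly, Acaca, Elovl6, Scd1, Me1, Thrsp, Pnpla3 and Agpat2.

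Elovl6, which lengthens palmitate to stearate, had a lowest, median and highest log10 ratio of -0.220, 0.0700 and 0.667 in the high-residual set of the Eif2s3y-high group, and -0.678, -0.204 and -0.0204 in the low-residual set. Its values in the Eif2s3y-low group were -0.313, 0.143 and 0.527 in the high-residual set, and -0.615, -0.281 and 0.0108 in the low-residual set. The sets overlapped in both groups, yet 38 of 39 high-residual animals of the Eif2s3y-high group and 36 of 37 of the Eif2s3y-low group with a value lay above the median of the low-residual set. The difference was 2.21-fold (log10 difference 0.345, SE 0.0386, limma adjusted p = 2.62e-12) and 2.75-fold (0.439, SE 0.0391, adjusted p = 3.79e-18). It was 0.285 and 0.411 in the Eif2s3y-high group among animals with F2 numbers up to and above the median, and 0.430 and 0.444 in the Eif2s3y-low group.

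Acly, which makes cytosolic acetyl-CoA from citrate and so supplies both fatty acid and sterol synthesis, had log10 ratios of -0.143, 0.125 and 0.566 (lowest, median, highest) in the high-residual set of the Eif2s3y-high group, and -0.498, -0.173 and 0.211 in the low-residual set. Among Eif2s3y-low animals it had -0.354, 0.202 and 0.495 in the high-residual set, and -0.440, -0.251 and 0.0334 in the low-residual set. All 39 high-residual animals of the Eif2s3y-high group and 38 of 39 of the Eif2s3y-low group lay above the median of the low-residual set. Acly was 1.96-fold (SE of the log10 difference 0.0351, limma adjusted p = 7.18e-11) and 2.66-fold higher (SE 0.0351, adjusted p = 4.15e-20).

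Me1, the malic enzyme that supplies NADPH, was 2.03-fold and 2.45-fold higher in the Eif2s3y-high and Eif2s3y-low groups. Acaca, which makes malonyl-CoA, was 1.9-fold and 1.97-fold higher, and Scd1, the stearoyl-CoA desaturase, 1.91-fold and 2.75-fold. Pnpla3, a lipid droplet protein that is a target of SREBP-1c, was 1.95-fold and 3.04-fold higher, and Thrsp, a lipogenic protein named for its response to thyroid hormone, 1.66-fold and 2.0-fold. Of the 19 genes, 1 differed between the groups: Acacb, the acetyl-CoA carboxylase of the mitochondrial surface, was 1.4-fold higher in the Eif2s3y-low group (limma adjusted p = 1.39e-07) and had 1.08-fold in the Eif2s3y-high group (adjusted p = 0.306; difference between groups adjusted p = 0.0455).

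Acss2, which activates acetate, was 2.03-fold higher in the Eif2s3y-low group and had 1.29-fold in the Eif2s3y-high group (limma adjusted p = 3.34e-08 and 0.0613), and the desaturases Fads1 and Fads2 were 1.29-fold and 1.37-fold higher in the Eif2s3y-low group. The test of the difference between groups gave adjusted p = 0.101 for Acss2, 0.248 for Fads1 and 0.352 for Fads2. The transferases that finish triglyceride, Dgat1 and Dgat2, were called in neither group.

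In the sterol pathway 1 of 12 genes was called in the Eif2s3y-high group and 6 of 12 in the Eif2s3y-low group. All were higher in the high-residual set, beside 9.95% and 3.69% of all genes called higher. The count in the Eif2s3y-high group was thus no more than the share of all genes. The test of the difference between groups was passed by 2 of the 12, beside 0.817% of all genes. The list's median was 1.02-fold and 1.24-fold. Mvd, the decarboxylase of mevalonate diphosphate whose upstream bases are given above, had log10 ratios of -0.197, 0.00817 and 0.234 (lowest, median, highest) in the high-residual set of the Eif2s3y-high group, and -0.252, -0.0923 and 0.374 in the low-residual set. The Eif2s3y-low group had -0.249, 0.0595 and 0.309 in the high-residual set, and -0.302, -0.107 and 0.150 in the low-residual set. The sets overlapped over most of their ranges, and the highest single value of the Eif2s3y-high group lay in the low-residual set. Mvd was 1.2-fold (SE of the log10 difference 0.0271, limma adjusted p = 0.0232) and 1.39-fold higher (SE 0.0271, adjusted p = 6.38e-05), and its adjusted p in the Eif2s3y-high group was 0.0540 without the 10 arrays of largest spread and 0.0840 with arrays centred and scaled.

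Lss, the cyclase that closes squalene epoxide to lanosterol in the step after Sqle, passed the test of the difference, as did Sc5d. Its log10 ratio was -0.182, 0.0129 and 0.115 in the high-residual set of the Eif2s3y-high group, and -0.210, -0.0347 and 0.353 in the low-residual set. Its values in the Eif2s3y-low group were -0.121, 0.0799 and 0.243 in the high-residual set, and -0.285, -0.0947 and 0.136 in the low-residual set. Lss was 1.43-fold higher in the Eif2s3y-low group (limma adjusted p = 5.60e-09) and had 1.05-fold in the Eif2s3y-high group (adjusted p = 0.532; difference between groups adjusted p = 0.00963). Sc5d, which sets a double bond in the sterol ring, was likewise 1.51-fold higher in the Eif2s3y-low group and had 1.12-fold in the Eif2s3y-high group (difference between groups limma adjusted p = 0.0431). Dhcr7, which makes cholesterol in its last step, was 1.46-fold higher in the Eif2s3y-low group and had 1.21-fold in the Eif2s3y-high group (limma adjusted p = 0.000127 and 0.0563).

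Sqle moved with these counts, being 1.36-fold higher in the high-residual set of the Eif2s3y-low group and 1.21-fold lower in that of the Eif2s3y-high group. With standardized Sqle as a covariate in the limma model, the same 4 sterol genes were called higher in each group: Mvd, Lss, Sc5d and Dhcr7. Their log10 differences at equal Sqle were 0.103 and 0.104 for Mvd, 0.0384 and 0.128 for Lss, 0.0609 and 0.159 for Sc5d, and 0.110 and 0.118 for Dhcr7, in the Eif2s3y-high and Eif2s3y-low groups. Idi1, Fdps, Fdft1 and Cyp51, enzymes between mevalonate and the step after lanosterol, were not called in either group at equal Sqle. With the same covariate 12 of the 19 fatty acid synthesis genes were called higher in both groups.

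A ranking on the difference of standardized Fasn and standardized Sqle, in place of the residual, set the 2 genes in opposite directions. Of the 39 animals of each set, 33 of the high-residual set and 30 of the low-residual set were retained in the Eif2s3y-high group, and 26 and 32 in the Eif2s3y-low group. Fasn was then 2.1-fold and 2.0-fold higher and Sqle 2.7-fold and 2.0-fold lower in the set ranked high, which again follows from the ranking. Of all genes, 5.97% were called higher and 4.66% lower in the Eif2s3y-high group, and in the Eif2s3y-low group 2.85% and 2.46%. Sterol synthesis then turned: 0 of 12 genes rose and 5 fell in the Eif2s3y-high group, namely Idi1 by 1.53-fold, Cyp51 by 1.46-fold, Fdps by 1.39-fold, Fdft1 by 1.26-fold and Lss by 1.2-fold. Among Eif2s3y-low animals 1 gene, Sc5d, was higher and 0 were lower. Of the 19 fatty acid synthesis genes 7 rose in each group, against 9 and 14 in the ranking on the residual, with Acly, Acaca, Elovl6, Scd1, Me1 and Agpat2 in both. The list's median log10 difference was then 0.0136 and 0.0387, against 0.0857 and 0.137 in the ranking on the residual. Pnpla3 in the Eif2s3y-high group and Thrsp in both groups were no longer called (limma adjusted p = 0.0749, 0.108 and 0.189).

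**Figure D2:**
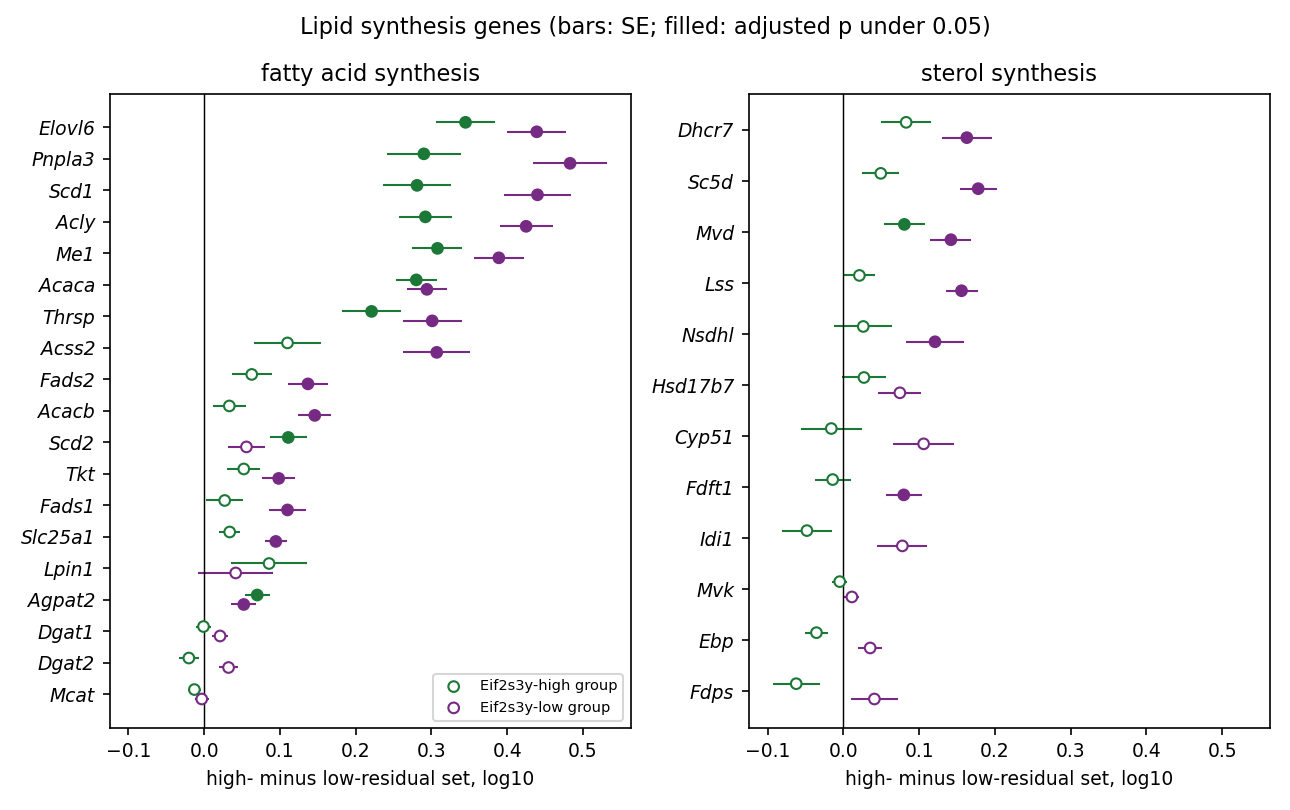
Differences between the high-residual and the low-residual set on the log10 scale (horizontal axis) for the 19 fatty acid synthesis genes (left) and the 12 sterol synthesis genes (right), with green points for the Eif2s3y-high group, purple points for the Eif2s3y-low group and bars for the SE (39 animals in each set). Filled points had an adjusted p under 0.05; Elovl6, Pnpla3, Scd1, Acly and Me1 lie farthest to the right, and 1 sterol gene is filled in green against 6 in purple.

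Insig1, which holds the SREBP precursors in the endoplasmic reticulum and is itself an SREBP target, was higher in both groups. It had log10 ratios of -0.174, 0.0635 and 0.364 (lowest, median, highest) in the high-residual set of the Eif2s3y-high group, and -0.456, -0.103 and 0.334 in the low-residual set. Among Eif2s3y-low animals it had -0.199, 0.155 and 0.429 in the high-residual set, and -0.495, -0.0782 and 0.228 in the low-residual set. The difference was 1.4-fold (limma adjusted p = 0.00111) and 1.78-fold (adjusted p = 1.76e-08), and 33 of 39 and 37 of 39 high-residual animals lay above the median of the low-residual set. Ranked on the difference of Fasn and Sqle, Insig1 had log10 differences of 0.0442 and 0.118 (adjusted p = 0.509 and 0.0511). Rdh11, a retinol dehydrogenase regulated by SREBP, was 1.68-fold higher in the Eif2s3y-low group and had 1.21-fold in the Eif2s3y-high group (limma adjusted p = 6.15e-06 and 0.128).

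Of 15 lipogenic regulators, 2 rose and 2 fell in the Eif2s3y-high group and 1 rose in the Eif2s3y-low group. Of all genes, 20.1% and 7.32% were called in either direction. Srebf2, the gene of SREBP-2, had 1.1-fold and 1.0-fold, Insig2 had 1.16-fold and 1.03-fold, and Mlxipl, the gene of ChREBP, had 0.930-fold and 1.09-fold in the Eif2s3y-high and Eif2s3y-low groups, none of them called. Irs1, which carries the insulin receptor's signal, was called higher in both groups, by 1.15-fold and 1.30-fold.

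Of 12 glycolysis and glucose uptake genes, 5 rose and 0 fell in each group, beside 9.95% and 3.69% of all genes called higher, and 7 were called in neither direction in each group. Ranked on the difference of Fasn and Sqle, 1 rose in the Eif2s3y-high group and 3 in the Eif2s3y-low group. Among Eif2s3y-high animals 2 rose among those with F2 numbers up to the median and 2 above it. The 4 that rose in both groups were Pklr, the liver pyruvate kinase, Khk, which phosphorylates fructose, Gapdh, and Pdha1, a subunit of pyruvate dehydrogenase. Gapdh was 1.24-fold and 1.26-fold higher, Khk 1.18-fold and 1.29-fold, and Pklr 1.1-fold and 1.16-fold. Outside this list, Slc2a4, the insulin-responsive glucose transporter of muscle and fat, had log10 ratios of -0.625, -0.164 and 0.374 (lowest, median, highest) in the high-residual set of the Eif2s3y-high group, and -0.638, -0.276 and 0.0488 in the low-residual set. The Eif2s3y-low group had -0.142, 0.253 and 0.601 in the high-residual set, and -0.656, -0.0644 and 0.255 in the low-residual set. It was 1.44-fold and 2.2-fold higher (limma adjusted p = 0.00498 and 1.16e-09), and 25 of 39 and 36 of 39 high-residual animals lay above the median of the low-residual set. The skeletal muscle list had 0 of 8 genes called in either group, with positive differences for 0 of 8 in the Eif2s3y-high group and 8 of 8 in the Eif2s3y-low group and list medians of 0.978-fold and 1.14-fold. With arrays of strong muscle or pancreas signal left out, the Slc2a4 log10 difference was 0.145 and 0.327 (limma adjusted p = 0.0125 and 9.96e-09), against 0.16 and 0.343 with them.

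Of 17 fatty acid oxidation genes 3 rose and 1 fell in the Eif2s3y-high group and 2 rose and 1 fell in the Eif2s3y-low group, beside 20.1% and 7.32% of all genes called in either direction. Ranked on the difference of Fasn and Sqle, 0 rose in the Eif2s3y-high group. Cpt1a, the gate of fatty acids into mitochondria, which malonyl-CoA inhibits as an enzyme, fell by 1.22-fold and 1.23-fold (limma adjusted p = 1.18e-05 and 6.15e-06). It was lower in 36 of 39 high-residual animals of the Eif2s3y-high group and 38 of 39 of the Eif2s3y-low group than the median of the low-residual set. Pex11a, a protein of peroxisome division, rose by 1.28-fold and 1.27-fold, and no other oxidation gene was called in both groups. Pck1, the first enzyme of gluconeogenesis, had 0.841-fold and 0.851-fold (adjusted p = 0.169 and 0.319). Of 17 circadian clock genes, Bhlhe40 was higher in both groups (1.14-fold and 1.15-fold) and Nfil3 lower in both (1.25-fold and 1.18-fold). Arntl had 1.02-fold and 0.985-fold and Dbp 0.959-fold and 1.0-fold, with adjusted p from 0.345 to 0.961 by limma.

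Lipid droplet and storage genes were higher in the Eif2s3y-high group, where 7 of 11 rose with a list median of 1.5-fold. In the Eif2s3y-low group 0 of 11 were called, with a median of 1.13-fold. Fewer genes were called there in general, 3.69% of all genes higher against 9.95% in the Eif2s3y-high group. Differences were positive for 10 of the 11 in the Eif2s3y-high group and 9 of the 11 in the Eif2s3y-low group. Cidea, a protein that fuses lipid droplets, had log10 ratios of -1.02, 0.308 and 1.03 (lowest, median, highest) in the high-residual set of the Eif2s3y-high group, and -1.30, -0.798 and 0.749 in the low-residual set. Both sets spanned nearly the whole scale of the gene, and 36 of 39 high-residual animals lay above the median of the low-residual set. Its values in the Eif2s3y-low group were -1.55, -1.16 and -0.397 in the high-residual set, and -1.53, -1.22 and -0.895 in the low-residual set. Cidea was 6.19-fold higher in the Eif2s3y-high group (log10 difference 0.792, SE 0.0984, limma adjusted p = 2.96e-10) and had 1.34-fold in the Eif2s3y-low group (adjusted p = 0.523), and the groups differed (adjusted p = 0.00400). Over 4 sets of the Eif2s3y-high group, ordered by residual, its median climbed in steps, from -0.798 in the lowest through -0.382 and 0.0650 to 0.308 in the highest.

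The other 6 storage genes called in the Eif2s3y-high group were Plin4, a droplet coat protein, at 1.89-fold, Fabp4, a fatty acid carrier of adipocytes and macrophages, at 1.54-fold, Cd36, a fatty acid receptor, at 1.5-fold, Fitm1 at 1.5-fold, Pparg, a nuclear receptor that drives fat storage, at 1.41-fold, and Vldlr, a lipoprotein receptor, at 1.35-fold. Cidea was the only one of the 11 that passed the test of the difference between groups. In the macrophage and matrix lists 0 genes passed the test of the difference between groups. Most calls in both lists came from the Eif2s3y-high group, where 9.95% of all genes were called higher and 10.2% lower. Of 23 macrophage genes 9 rose and 2 fell there, with Trem2, a receptor of lipid-laden macrophages, at 1.6-fold, and with Marco, a scavenger receptor of Kupffer cells, 2.01-fold lower, and in the Eif2s3y-low group 0 were called. The mean log10 ratio over the 23 genes ran from -0.162 to 0.0652 in the high-residual set and from -0.249 to 0.144 in the low-residual set of the Eif2s3y-high group. Of 16 stellate cell and matrix genes 7 rose, with Pdgfrb at 1.37-fold and Col4a1 at 1.36-fold, against 1 in the Eif2s3y-low group, and their mean ran from -0.123 to 0.132 in the high-residual set and from -0.226 to 0.152 in the low-residual set of the Eif2s3y-high group. Of 4 adipose markers 0 rose and 1, Lep, fell in that group, with a mean from -0.0717 to 0.133 in the high-residual set and from -0.0603 to 0.144 in the low-residual set. Of 8 hepatocyte genes 0 rose and 1, Hnf4a, fell, with a mean from -0.094 to 0.0564 and from -0.101 to 0.083 in the same order. In whole liver, fewer cells of a type and less RNA per cell cannot be told apart, and the part of these cell types in the storage genes was not tested. The macrophage count was 3 among animals with F2 numbers up to the median and 1 above it.

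Some genes of sex-dependent liver programs, mostly male-biased ones, differed between the groups. The test of the difference was passed by 4 of 11 male-biased and 1 of 14 female-biased genes, beside 0.817% of all genes. Ranked on the difference of Fasn and Sqle, 1 of all genes tested passed it, and a slope on the residual gave more (counts further below). Of 11 male-biased genes 5 were lower in the high-residual set of the Eif2s3y-high group, and 1 was higher in that of the Eif2s3y-low group. Hsd3b5, a steroid reductase of male mouse liver, had log10 ratios of -1.23, -0.165 and 0.656 (lowest, median, highest) in the high-residual set of the Eif2s3y-high group, and -1.25, 0.454 and 0.918 in the low-residual set. In the Eif2s3y-low group both sets were low, with -1.38, -1.25 and -0.132 in the high-residual set and -1.46, -1.24 and -0.508 in the low-residual set. Hsd3b5 was 3.90-fold lower in the Eif2s3y-high group (log10 difference -0.592, SE 0.101, limma adjusted p = 4.60e-06) and had 1.09-fold in the Eif2s3y-low group (difference between groups adjusted p = 0.0112). Slco1a1, an organic anion carrier, was 1.97-fold lower in the Eif2s3y-high group, and Cyp7b1, an oxysterol hydroxylase, 1.77-fold lower. Of 14 female-biased genes 2 rose in that group, Slc22a27 by 1.83-fold and Cyp3a41a by 1.55-fold.

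**Figure D3:**
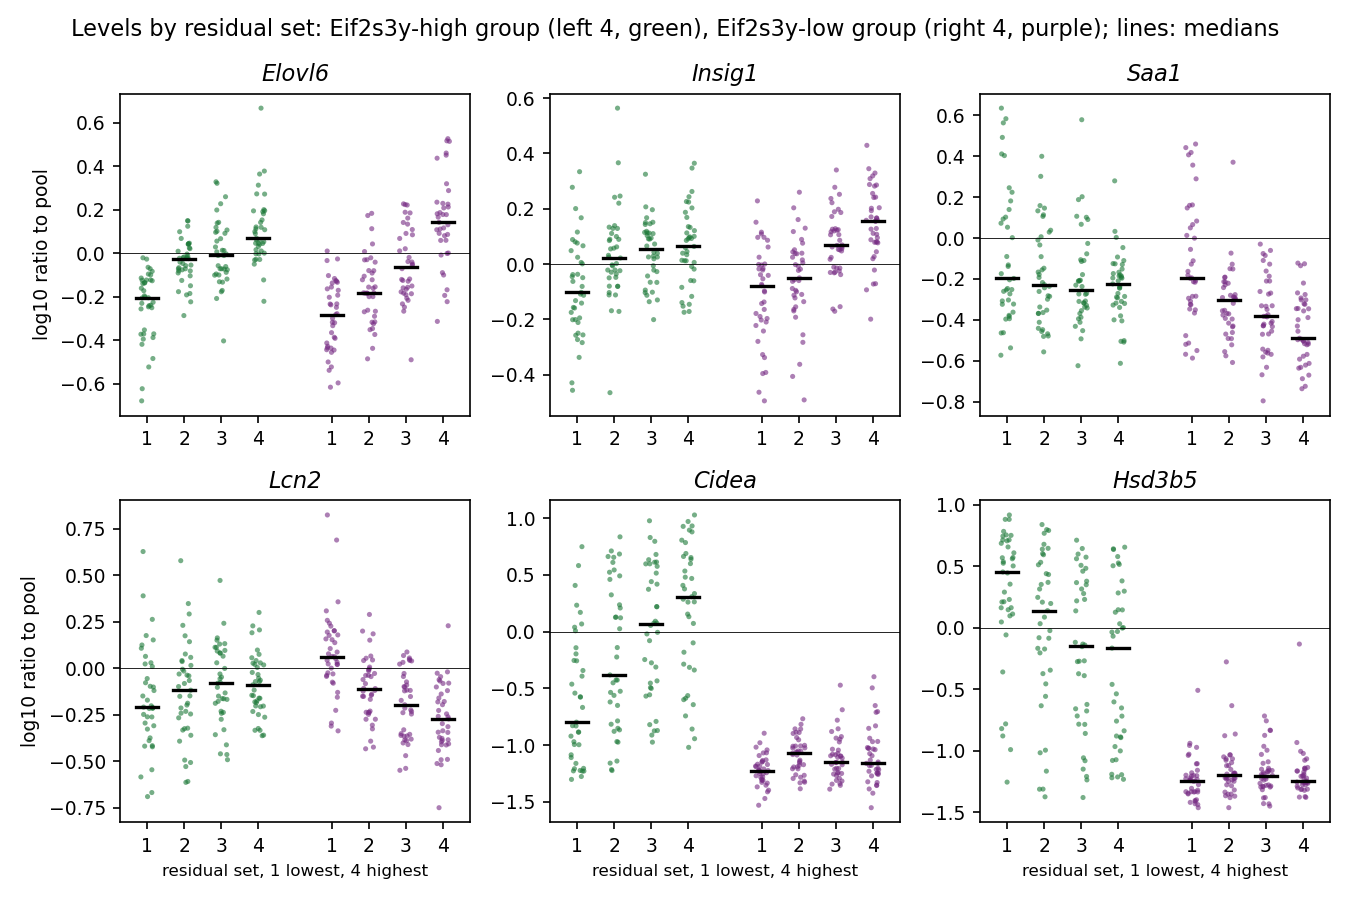
Log10 ratio to the pool (vertical axis) of 6 genes by residual set, from the lowest (1) to the highest (4), with 1 point per animal, green for the Eif2s3y-high group (left 4 columns of each panel) and purple for the Eif2s3y-low group (right 4 columns), and black lines at the medians. Elovl6 and Insig1 climb with the residual in both groups, Lcn2 descends in the purple columns, and Cidea and Hsd3b5 step in the green columns.

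Genes of acute phase plasma proteins were called lower in both groups in the ranking on the residual. Of 14 tested 8 fell and 0 rose in the Eif2s3y-high group, and 13 fell and 0 rose in the Eif2s3y-low group. Called lower among all genes were 10.2% and 3.63%. The list medians were 0.818-fold and 0.692-fold, and 8 genes were lower in both. Ranked on the difference of Fasn and Sqle, 3 fell and 1 rose in the Eif2s3y-high group, and 13 fell and 0 rose in the Eif2s3y-low group. Saa1, a serum amyloid A that liver secretes in inflammation, had log10 ratios of -0.613, -0.224 and 0.280 (lowest, median, highest) in the high-residual set of the Eif2s3y-high group, and -0.573, -0.197 and 0.636 in the low-residual set. Among Eif2s3y-low animals it had -0.737, -0.490 and -0.122 in the high-residual set, and -0.587, -0.194 and 0.460 in the low-residual set. Among Eif2s3y-high animals the medians were close and a few high animals of the low-residual set stood out, while in the Eif2s3y-low group the median of the high-residual set lay lower and the sets still overlapped. Saa1 was 1.42-fold and 2.11-fold lower (limma adjusted p = 0.0422 and 8.25e-06), in 21 of 39 and 36 of 39 high-residual animals relative to the median of the low-residual set. The call in the Eif2s3y-high group was lost when arrays were centred and scaled (limma adjusted p = 0.121), when each group was fitted on its own (0.0558), without the 10 arrays of largest spread (0.159) and when ranked on the difference of Fasn and Sqle (0.617).

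The acute phase counts were unlike by F2 number. Among Eif2s3y-high animals 0 of 14 acute phase genes were called lower among animals with numbers up to the median and 8 above it, and without the 10 arrays of largest spread the count over all animals was 5. In the Eif2s3y-low group 13 were called up to the median and 3 above it. The log10 difference of Saa1 was -0.0315 up to and -0.313 above the median number in the Eif2s3y-high group, and -0.478 and -0.214 in the Eif2s3y-low group. The number of an animal is not described further in the labels, and whether the 2 sets of numbers differ was not tested.

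Lcn2 is lipocalin 2, which binds bacterial iron carriers. It had, with Tuba1c on the probe used here, the lowest adjusted p in the test of the difference between groups. Its log10 ratio was -0.362, -0.0885 and 0.30 in the high-residual set of the Eif2s3y-high group, and -0.689, -0.208 and 0.628 in the low-residual set. The Eif2s3y-low group had -0.749, -0.272 and 0.229 in the high-residual set, and -0.336, 0.0631 and 0.824 in the low-residual set. Lcn2 was 2.24-fold lower in the Eif2s3y-low group (limma adjusted p = 1.76e-08) and had 1.18-fold in the Eif2s3y-high group (adjusted p = 0.321; difference between groups adjusted p = 5.51e-05). Itih3, of the acute phase list, was 1.37-fold and 1.58-fold lower. Genes outside that list that were lower in both groups included Fgl1, a fibrinogen-like liver protein, by 1.66-fold and 1.93-fold, C8a, a subunit of the complement attack complex, by 1.44-fold and 1.84-fold, and Lrg1 by 1.28-fold and 1.83-fold. Rnase4, a secreted ribonuclease, was 1.82-fold and 1.64-fold lower, and Apob, the protein of very low density lipoproteins, 1.43-fold and 1.33-fold.

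Of 24 interferon genes 6 fell and 2 rose in the Eif2s3y-high group, and 10 fell and 1 rose in the Eif2s3y-low group, beside 10.2% and 3.63% of all genes called lower. The counts of lower genes were 3 and 6 with probes measured on every array, and 3 in the Eif2s3y-high group with arrays centred and scaled. Ifit1, Isg15 and the immunoproteasome subunits Psmb8 and Psmb9 were lower in both, Psmb8 by 1.23-fold and 1.23-fold. Mx1, a GTPase that blocks influenza virus, went the other way. Its log10 ratio was -0.312, 0.149 and 0.350 (lowest, median, highest) in the high-residual set of the Eif2s3y-high group, and -0.531, -0.0285 and 0.195 in the low-residual set. Its values in the Eif2s3y-low group were -0.414, 0.0910 and 0.359 in the high-residual set, and -0.687, -0.223 and 0.0853 in the low-residual set. Mx1 was 1.55-fold and 2.09-fold higher (limma adjusted p = 4.64e-05 and 3.56e-12), in 38 of 39 and 37 of 39 high-residual animals relative to the median of the low-residual set. Ranked on the difference of Fasn and Sqle, its adjusted p was 0.0502 and 0.136.

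**Figure D4:**
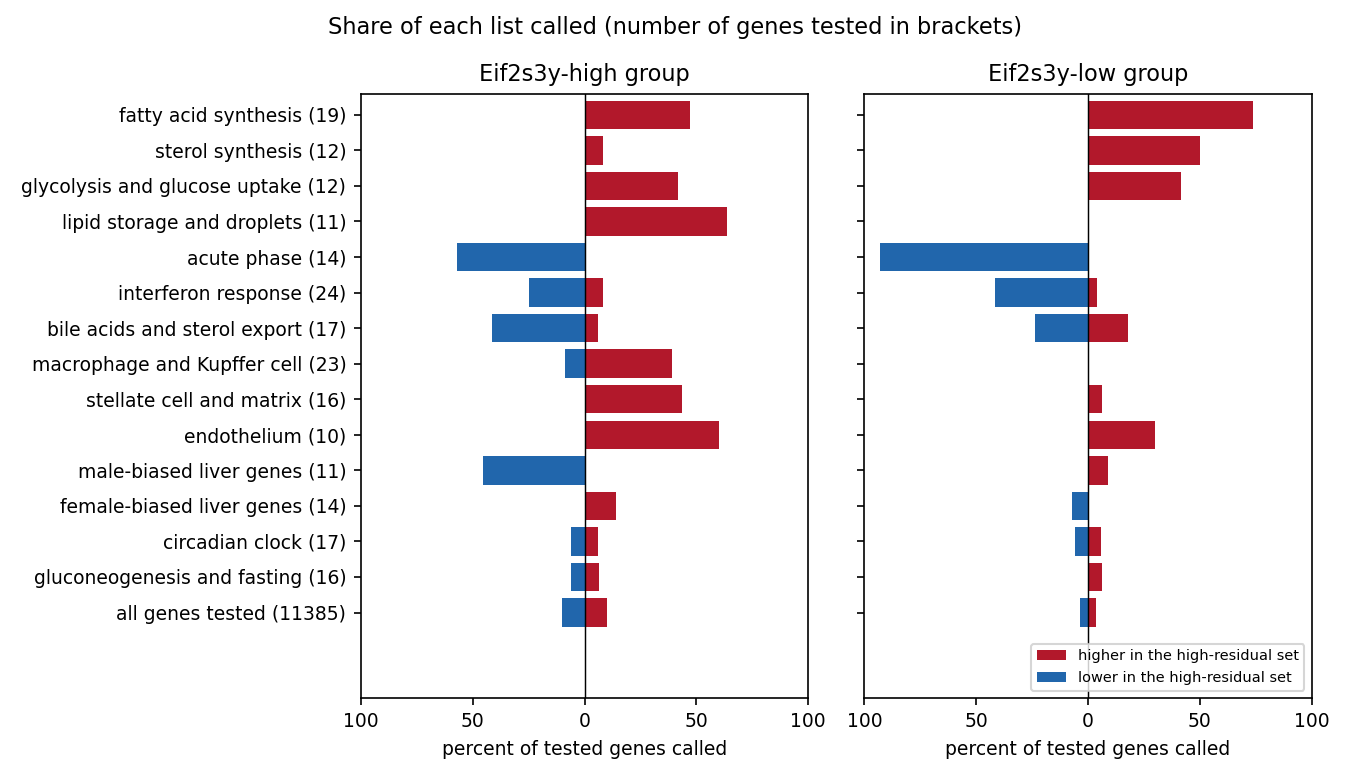
Percent of the tested genes of each list that were called higher (red, to the right) or lower (blue, to the left) in the high-residual set, with the Eif2s3y-high group on the left, the Eif2s3y-low group on the right and all 11385 genes tested in the bottom row. Fatty acid synthesis and the acute phase point opposite ways in both panels, and storage, macrophage and matrix bars are long in the left panel.

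Bile acid and sterol export genes were mixed. Of 17, 1 rose and 7 fell in the Eif2s3y-high group and 3 rose and 4 fell in the Eif2s3y-low group. Of all genes, 9.95% and 3.69% were called higher and 10.2% and 3.63% lower in the same order. Cyp7b1 and Slco1a1, lower in the Eif2s3y-high group, are also counted among the male-biased genes. The 3 lower in both were Scarb1, the receptor for high density lipoprotein, by 1.19-fold and 1.27-fold, Baat, which joins bile acids to taurine, by 1.1-fold and 1.16-fold, and Nr1h4, the bile acid receptor, by 1.09-fold and 1.06-fold. Of 14 xenobiotic genes 6 rose and 1 fell in the Eif2s3y-high group and 3 rose in the Eif2s3y-low group, where Gstm1, Gsta2 and Gclc, which make or use glutathione, rose in both. Gstm1 was 1.67-fold and 1.56-fold higher and Gsta2 1.66-fold and 1.84-fold; both belong to families of near-identical copies that a probe may not separate.

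Endothelial genes were higher in the Eif2s3y-high group for 6 of 10 and in the Eif2s3y-low group for 3 of 10, beside 9.95% and 3.69% of all genes. Kdr, the receptor for vascular endothelial growth factor, was 1.27-fold and 1.31-fold higher. The mean over the 10 genes ran from -0.149 to 0.0966 in the high-residual set and from -0.186 to 0.0583 in the low-residual set of the Eif2s3y-high group, and from -0.0772 to 0.0855 and from -0.166 to 0.101 in the Eif2s3y-low group. Among Eif2s3y-high animals 0 of 10 were called among animals with F2 numbers up to the median and 7 above it. The counts over all genes in these animals are given further below. The part of endothelial cell number in the result was not tested.

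The remaining lists are given beside the 20.1% of all genes called in the Eif2s3y-high group and 7.32% in the Eif2s3y-low group. Of 15 proliferation genes 4 rose and 1 fell in the Eif2s3y-high group and 2 rose in the Eif2s3y-low group, with Cdc20, an activator of the anaphase complex, at 1.37-fold and 1.33-fold. Of 16 gluconeogenesis and fasting genes 1 rose and 1 fell in the Eif2s3y-high group, where Igfbp2, an insulin-lowered binding protein, was 1.48-fold lower, and 1 rose in the Eif2s3y-low group. Of 14 unfolded protein response genes 2 rose and 1 fell, against 0 and 1 in the Eif2s3y-low group. Of 8 apolipoprotein and secretion genes 2 rose and 2 fell, against 0 and 1. Of 8 sterol-regulated genes outside synthesis 1 rose in the Eif2s3y-high group and 3 in the Eif2s3y-low group. Ribosomal proteins had 2 and 1 of 12 lower, respiratory chain genes 0 and 1 of 7 called, lymphocyte genes 1 and 0 of 11, cholangiocyte genes 1 and 0 of 5, kidney genes 2 and 0 of 7, and pancreas genes 0 and 0 of 7, in the Eif2s3y-high and Eif2s3y-low groups.

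**Figure D5:**
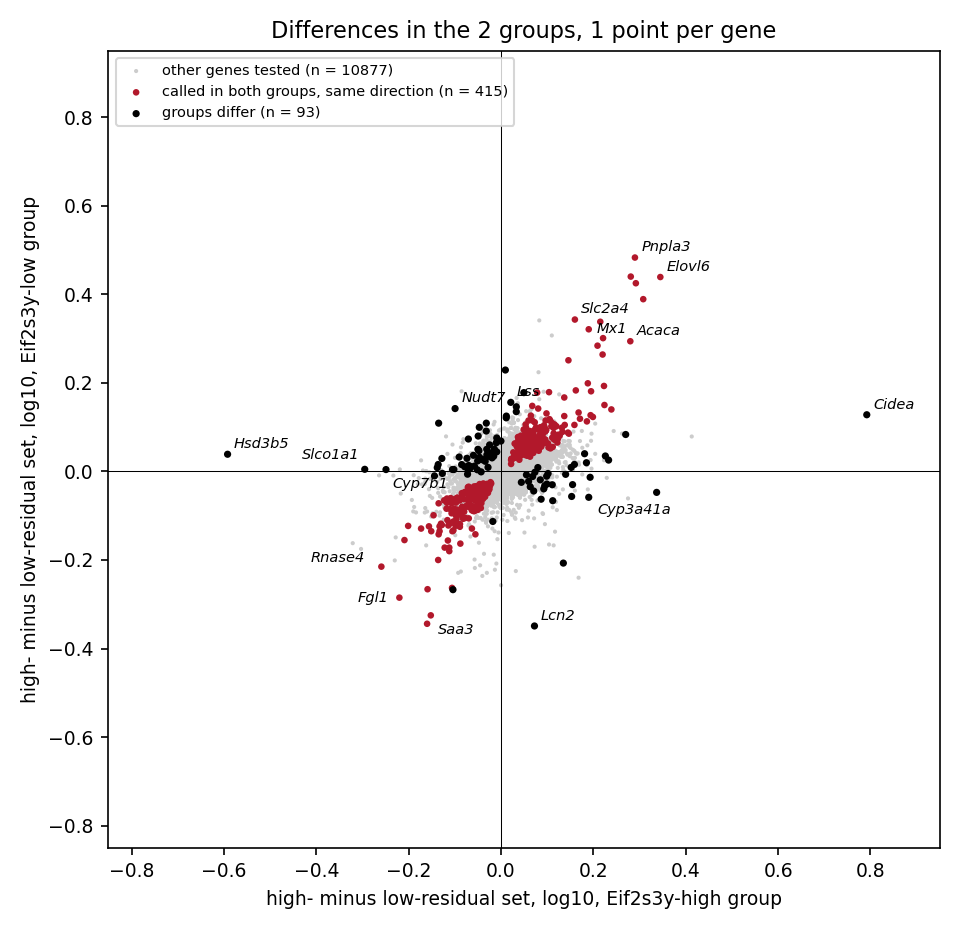
Difference between the high-residual and the low-residual set on the log10 scale in the Eif2s3y-high group (horizontal axis) and the Eif2s3y-low group (vertical axis), with 1 point per gene tested. Red points were called in both groups in 1 direction (415 of 416, the other, SLC41A3, being black), black points are the 93 genes whose differences were unlike; Cidea and Hsd3b5 lie far out along the horizontal axis and Lcn2 below it.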

How the data were processed

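The authors deposited 1 log10 ratio per probe and array, and the labels name the dyes, Cy3 for the animal and Cy5 for the pool; how the ratios were normalized is not given in the sources used here. That they are base 10, with the animal on top, rests on the values and not on a statement of the submitters: gene means fell on gene variances with a slope of -1.04, against -1.15 for log10 of a sample over a pool of all. Of 48205 pairs of arrays 127 had r under -0.3 (lowest -0.432), and the direction was kept because the labels give the dyes. Values ran between limits of -2 and 2, with 0.745% missing, and were used as deposited. Array medians lay between -0.0218 and 0.0172. The number of arrays limits the precision, and each animal has 1 array, so p-values measure the spread between animals. The F2 number was taken from the title also for 1 sample whose source name differs.

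Of 23388 probes 13645 named 1 gene, 48 several and 9695 none; symbols were updated through a RefSeq table of GRCm38.p6, and 681 kept the platform's name. Each of 11387 genes measured on at least 95% of arrays took the probe with the fewest missing values, the first at a tie. The 4 outer sets were fitted in 1 model with limma 3.58.1 (lmFit, eBayes; R 4.3.3), with contrasts for each group and for their difference and Benjamini-Hochberg adjustment over 11385 genes. Folds are powers of 10 of the differences. The comparison, the members and the 30 lists (372 of 533 genes measured) were chosen with earlier results of these data known, so the lists are descriptions. Named genes are the 12 highest and 12 lowest genes called in both groups, up to 5 members of a list called in both groups and 3 in 1 group, the 6 with the smallest p between groups, and a fixed set of lipid and clock genes; others were chosen after their values were seen. On simulated data with 11385 genes the model found 30% and 44% of genes changed 1.1-fold in the Eif2s3y-high and Eif2s3y-low groups. It found 68% and 76% of those changed 1.2-fold and 96% and 96% of those changed 1.5-fold. In the measured data the median absolute difference of called genes was 1.13-fold and 1.14-fold in the same order. The alternatives changed centring, scaling, probes, missing values, the size and definition of the sets, covariates, the animals used and the threshold.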

Additional observations from a re-analysis of the deposited data

Results flagged for a closer look

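For 17 genes named in the text or met by the naming rule, the difference between the high-residual and the low-residual set was unlike in the 2 groups by limma's test of the difference itself (adjusted p under 0.05). Such calls depended on the setting. Almost none of all genes passed when ranked on the difference of Fasn and Sqle, above the median F2 number or in the middle sets. More passed with a slope on the residual, larger outer sets or Sqle as a covariate. Values here are the log10 difference in the Eif2s3y-high group minus that in the Eif2s3y-low group. Positive values were 0.664 for Cidea, 0.422 for Lcn2, 0.249 for Cyp3a41a, 0.209 for Tuba1c, 0.185 for Tuba3a, 0.163 for SLC41A3, 0.141 for Tuba1b and 0.0627 for Pcx, the pyruvate carboxylase. Negative values were -0.630 for Hsd3b5, -0.30 for Slco1a1, -0.253 for Cyp7b1, -0.241 for Nudt7, -0.141 for Dot1l, -0.135 for Lss, -0.128 for Sc5d, -0.123 for Stard4 and -0.113 for Acacb.

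Nudt7, a peroxisomal CoA diphosphatase, was 1.26-fold lower in the high-residual set of the Eif2s3y-high group and 1.39-fold higher in that of the Eif2s3y-low group, both called (adjusted p = 0.0204 and 0.00148, limma). The tubulin genes Tuba1c, Tuba3a and Tuba1b were 1.42-fold, 1.43-fold and 1.29-fold higher in the Eif2s3y-high group and had 0.878-fold, 0.934-fold and 0.933-fold in the Eif2s3y-low group; they are near-identical and may share signal. In the Eif2s3y-high group Tuba1c had a log10 difference of 0.212 among animals with F2 numbers up to the median and 0.0708 above it. The Tuba1c result depended on the probe. With its most variable probe the log10 differences were -0.0168 and -0.0144 in the Eif2s3y-high and Eif2s3y-low groups (limma adjusted p = 0.908 and 0.954). Dot1l, a histone methyltransferase, was 1.29-fold higher in the Eif2s3y-low group and had 0.929-fold in the Eif2s3y-high group.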

How the results depend on the processing

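No paired analysis was possible because all animals carry 1 label group and each has a number of its own. The counts of called genes were 2294 in the Eif2s3y-high group, 833 in the Eif2s3y-low group, 416 in both and 93 unlike between groups; the values that moved by over 1.5 times follow in that order. The middle sets gave 0, 1, 0 and 0. Animals with F2 numbers up to the median gave 916, 271, 54 and 22, and those above it 609, 183, 63 and 0; each set holds fewer animals. A further limit of 1.2-fold gave 582, 243 and 113. The difference of standardized Fasn and Sqle gave 1211 in the Eif2s3y-high group, 185 in both and 1 unlike. A slope on the residual over all animals gave 1409 in the Eif2s3y-low group, 717 in both and 551 unlike. The number unlike was also 228 with larger outer sets, 174 with Sqle as a covariate, 51 with Dbp and Arntl as covariates and 60 without arrays of strong pancreas or muscle signal. Apart from the smaller sets of animals and the added limit, the cause was not tested.

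Of the alternative values of 179 called gene results, 2650 kept direction and call, 482 kept direction only and 27 changed sign. In the middle sets the log10 difference in the Eif2s3y-high group was -0.00967 for Cyp3a41a, -0.0120 for Gckr, -0.00997 for Kdr, -0.00143 for Khk, -0.00176 for Pcx, 0.00830 for SLC41A3, -0.000723 for Tek and -0.0434 for Thrsp. Among Eif2s3y-low animals it had 0.0147 for Apcs, 0.00844 for Egfr, -0.0382 for Ehhadh, -0.00300 for Gclc, -0.000236 for Gsta2, 0.0144 for Igtp, 0.00645 for Itih3, -0.00841 for Lpin2, -0.00210 for Ndufv1, -0.0109 for Pex11a, -0.00816 for Pgk1, 0.0138 for Psmb8, 0.0189 for Psmb9 and 0.0688 for Slc22a26. Ranked on the difference of Fasn and Sqle, it was -0.0808 for Lss and -0.0264 for Mvd in the Eif2s3y-high group, and -0.0254 for Cdc20, -0.0192 for Dhcr7 and -0.000224 for Pgk1 in the Eif2s3y-low group. With the most variable probe Tuba1c had -0.0168 in the Eif2s3y-high group. The macrophage count in the Eif2s3y-high group, 9, was 5 with Dbp and Arntl or with F2 number as covariates and 5 with probes on every array. Ranked on the difference of Fasn and Sqle, the Eif2s3y-high group had 3 of 14 acute phase genes and 3 of 11 male-biased genes lower. Higher there were 1 of 14 acute phase, 4 of 23 macrophage, 3 of 10 endothelial and 0 of 15 proliferation genes. In the Eif2s3y-low group 4 of 24 interferon genes were lower and 1 of 10 endothelial genes was higher. Of 17 bile acid genes 4 were higher and 0 lower in that group. With probes on every array, which tests fewer genes, 4 storage genes rose and 4 bile acid genes fell in the Eif2s3y-high group, and 9 fatty acid synthesis genes rose in the Eif2s3y-low group.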

Other observations

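Over chromosomes, the genes called in both groups were 5.80% of the genes tested on chromosome 14 (21 of 362). The share was 5.18% on chromosome 17 (27 of 521) and 2.63% on chromosome 15 (11 of 418). These shares count higher and lower genes together. Over all 11385 genes tested, 416 were called in both groups in 1 direction, 1.88% being higher and 1.77% lower. The shares of the other autosomes and of X lay between those of chromosomes 15 and 14. Whether chromosomes differ was not tested. In 10381 windows of 20 neighbouring measured genes the median was 1 gene called in both groups and the highest 6. Windows with 6 lay on chromosome 11, with Chrne, Camta2, Kif1c, Derl2, 6330403K07Rik and Pimreg, and on chromosome 17, with Ehd3, Birc6, Rasgrp3, Morn2, Pkdcc and Cox7a2l. Neighbouring genes of an intercross share genotypes, and no genotype was used here. These genes were named after their values were seen.

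Among other genes called higher in both groups, Aqp8, a water channel, was 1.62-fold and 1.92-fold higher, and Cyp2c55, a cytochrome P450, 1.64-fold and 2.18-fold in the Eif2s3y-high and Eif2s3y-low groups. Among those lower in both, Egfr, the epidermal growth factor receptor, was 1.62-fold and 1.43-fold lower, Urad, an enzyme of uric acid breakdown, 1.49-fold and 1.34-fold, Cyp2c54 1.59-fold and 1.33-fold, and Slc37a1 1.33-fold and 1.48-fold.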
